A study of Homo sapiens with 61 samples.

Results

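Dual leucine zipper kinase (DLK, gene MAP3K12) and leucine zipper-bearing kinase (LZK, gene MAP3K13) were knocked out singly or together in human neurons, and the question taken up here is what the loss of LZK did to the transcriptional effect of vincristine when DLK was already absent. The measure is a difference of differences: the log2 change with vincristine in the DLK LZK double KO line minus the log2 change with vincristine in the DLK KO line. It used 16 of the 61 libraries of the study, which were 4 each of DLK KO untreated, DLK KO vincristine, double KO untreated and double KO vincristine. Of 58440 gene identifiers, 17360 had enough counts in these libraries and all of them were tested. A negative value means that vincristine raised a gene less, or lowered it more, in the double KO than in DLK KO.

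The cells were neurons made from WTC11, a human induced pluripotent stem cell line, with the neuronal transcription factor NGN2, and were sampled after up to 14 days of differentiation. Treated cells received 5 nM vincristine, a drug that takes microtubules apart, and the cells called untreated received the DMSO vehicle, each over 16 h. Both lines compared lack DLK, so neither is a wild type. The remaining 45 libraries were 16 of WT and LZK KO cells under the same treatments and 29 of a second experiment with cells labelled Control gRNA, ATF2 gRNA or JUN gRNA. The labels do not say whether a knockout line is 1 clone, nor whether the 4 replicates of a group came from separate cultures, so p-values measure the spread between these libraries, which may be technical. RNA was measured in bulk, and fewer cells of a type cannot be told apart from less RNA per cell.

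DLK and LZK are related mixed-lineage kinases that sit at the top of a stress pathway in neurons. They phosphorylate the kinases MKK4 and MKK7, which activate the JNK kinases, which in turn phosphorylate JUN and ATF2. The pathway responds to axon injury and to disruption of the cytoskeleton, and it is known for driving either axon regrowth or neuronal death. JUN acts mostly as a dimer with FOS, ATF or related proteins on the DNA motifs called AP-1 and CRE sites.

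MAP3K13 transcript checked the labels of the comparison. In DLK KO it stood at 110, 114, 106 and 108 CPM (the normalised read count, scaled to the effective size of each library) in the 4 untreated libraries and at 137, 142, 132 and 144 CPM after vincristine. In the double KO it stood at 30.6, 31.9, 31.7 and 27.4 CPM untreated and at 32.7, 32.7, 29.7 and 28.9 CPM after vincristine. All double KO libraries lay far below all DLK KO libraries, and the reduced transcript that remained does not measure protein. MAP3K13 (ENSG00000073803.13, chr3:185282941-185489097 in GRCh38) rose with vincristine in DLK KO by 0.35 ± 0.05 (log2, SE) and stood at 0.03 ± 0.06 in the double KO, and the difference of -0.32 ± 0.08 was called (edgeR quasi-likelihood test, adjusted p 0.00487) but lost its call in a fit of all 32 libraries of the experiment (-0.31, adjusted p 0.0589). MAP3K12 stood at 91.0 CPM in untreated WT, 76.1 in LZK KO, 26.3 in DLK KO and 19.7 in the double KO when all 32 libraries of the experiment were scaled together. Scaled within the 16, it stood at 27.2 ± 2.58 CPM (SD, n = 4) in untreated DLK KO and 20.2 ± 2.44 CPM in the untreated double KO, and its difference in effect of -0.20 ± 0.13 was not called.

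Library totals ran from 8772268 to 13694427 counts, the mitochondrial share from 6.2% to 8.24% and the share of small noncoding RNA genes from 1.6% to 3.95%. Neuron markers were abundant in every library. The cells are labelled cortical, and the summed cortical excitatory markers stood at 517 to 631 CPM in DLK KO and 535 to 550.2 CPM in the double KO, with 8 of 10 members tested, among them SLC17A6, CUX1 and POU3F2, and EMX1 below the count filter. Summed peripheral neuron markers stood at 233 to 288 CPM in DLK KO and 452 to 504 CPM in the double KO, of which POU4F1, a sensory neuron factor, made up 199 CPM in untreated DLK KO and 206 CPM in the untreated double KO. Of the 6 peripheral markers, 4 were called higher and 1 lower in the untreated double KO (median 1.52), beside 29.6% and 27.8% of all genes. All 3 tested inhibitory neuron markers were called higher there (median 1.56). Their list summed to 2.66 to 4.33 CPM in untreated DLK KO and 9.33 to 11.25 CPM in the untreated double KO. Of 8 pluripotent cell markers, ZFP42 was at 0 in every library, and the summed level of the list was 19.2 to 24 CPM in DLK KO and 68 to 76.5 CPM in the double KO. Summed dividing cell markers stood at 45.1 to 51.8 CPM in DLK KO vincristine and 66.4 to 70.2 CPM in double KO vincristine, with 1 of 7 tested genes (CCNB1) called for the difference in effect. The part of these cells in the results was not tested.

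The double KO neurons responded far less to vincristine than the DLK KO neurons, and the stress and death genes of this pathway were among those that differed most. Of the 17360 genes, 3208 (18.5%) had a vincristine effect that differed between the lines at an adjusted p under 0.05, the threshold used for every call here. The effect was lower in the double KO for 2068 genes (11.9%) and higher for 1140 (6.57%), with medians of -0.42 and 0.35 among those called. At least 2-fold differences were found for 86 genes on the lower and 34 on the higher side. Vincristine changed 3925 genes (22.6%) in DLK KO, 2430 of them higher (14%) and 1495 lower (8.61%). In the double KO it changed 121 genes (0.697%), 66 higher (0.38%) and 55 lower, while 2746 had an unadjusted p under 0.05 (439 genes were called by DESeq2 and 448 by limma voom). The plot of both effects shows JUN, HRK, ATF3, CREB5 and EIF2AK3 far to the right, near the line of no effect in the double KO, and the tubulin genes low on both axes.

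**Figure D1:**
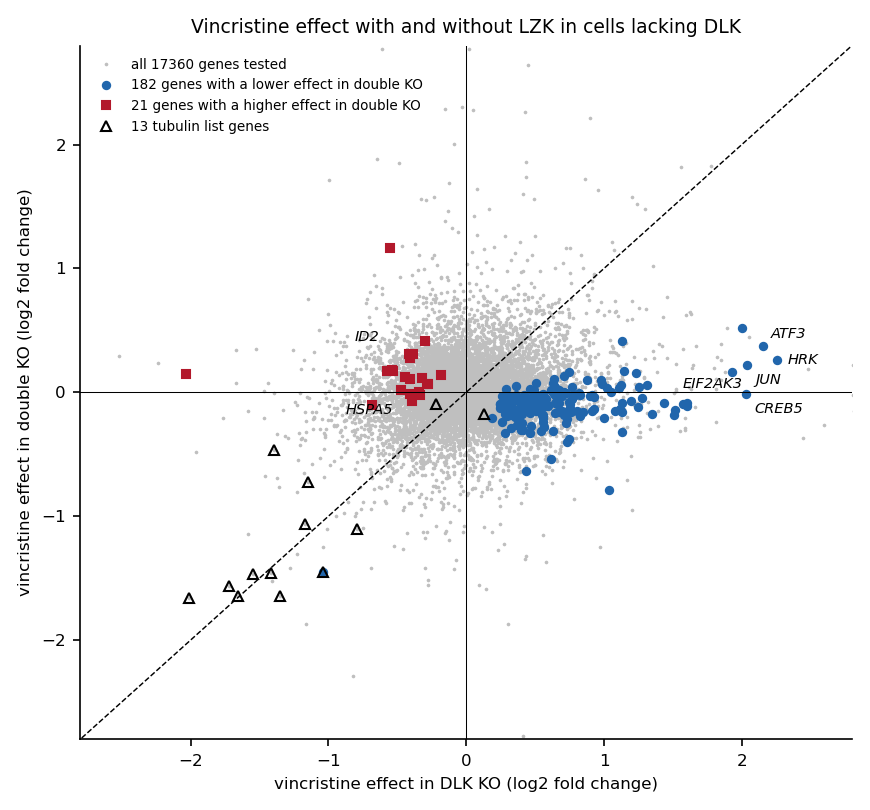
Vincristine effect in DLK KO (horizontal, log2 fold change) against that in the double KO (vertical), 1 grey point per gene, with the dashed line marking equal effects. Blue circles are the 182 genes and red squares the 21 genes whose difference was called lower or higher in each of 3 fits, and triangles are 13 tubulin list genes, most of which fell in both lines; 17 genes lie outside the axes.

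The number of called genes followed the base composition of the transcripts. Genes were put into 5 bins of equal size by the GC content of their longest transcript, available for 17324 of the 17360. The median difference went from 0.147 in the lowest bin to -0.288 in the highest, and the genes called lower numbered 57, 99, 284, 609 and 1019 from the lowest to the highest bin. The median effect in DLK KO went from -0.112 to 0.239 over the same bins and that in the double KO from 0.0344 to -0.0407. Among single libraries, the highest minus the lowest bin (log2 CPM, relative to the mean of the same line) was -0.328, -0.178, -0.115 and -0.0676 in DLK KO untreated and 0.225, 0.284, 0.049 and 0.148 in DLK KO vincristine, so these groups did not overlap. In the double KO it lay between -0.0723 and 0.114. With an offset for each library's GC trend, an alternative chosen after seeing the data, 1945 genes were called (780 higher, 1165 lower), of which 1506 were among the 3208. Fitting all 32 libraries of the experiment together called 207 genes (23 higher, 184 lower), 206 of them among the 3208. The spread between libraries, as a biological coefficient of variation, was 6.36% in DLK KO, 4.91% in the double KO, 13.4% in WT and 12.4% in LZK KO. The 203 genes called in all 3 fits, 182 lower and 21 higher, are the ones marked in the plot of both effects, and their median differences were -0.663 and 0.566.

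**Figure D2:**
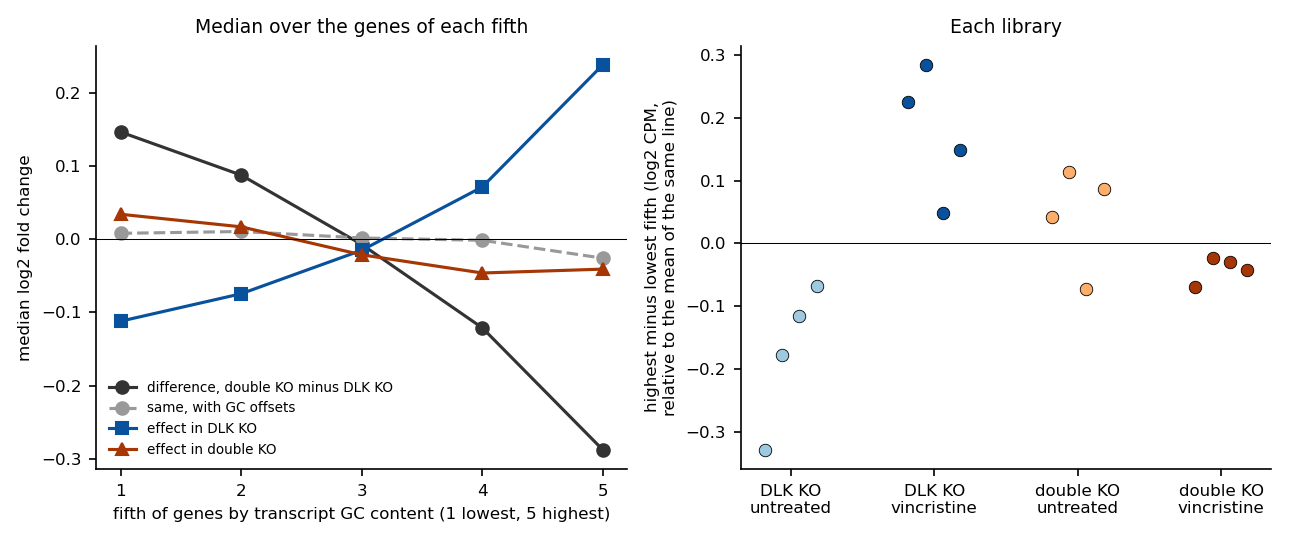
Left, median log2 change over genes in each of 5 bins of transcript GC content, where the difference (black) goes from 0.147 to -0.288 and stays near 0 with GC offsets (grey, dashed). Right, the highest minus the lowest bin in each library (log2 CPM), where DLK KO untreated libraries lie below 0 and DLK KO vincristine libraries above 0.

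The transcription factors downstream of the kinases carried some of the largest differences. JUN (ENSG00000177606.6, chr1:58780788-58784327), the main AP-1 subunit phosphorylated by JNK, stood at 49.6, 59.8, 63.0 and 56.2 CPM in untreated DLK KO and at 249.9, 246, 216 and 229 CPM after vincristine. In the double KO it stood at 39.3, 43.1, 37.4 and 42.5 CPM untreated and at 45.5, 47.6, 47.4 and 48.1 CPM after vincristine. The vincristine libraries lay above the untreated ones in each line, by 4.12-fold of the mean in DLK KO and 1.16-fold in the double KO. JUN rose by 2.04 ± 0.06 (log2, SE) in DLK KO, its effect of 0.22 ± 0.07 in the double KO was not called (adjusted p 0.0961), and the difference was -1.82 ± 0.09 (edgeR, adjusted p 2.14e-18).

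CREB5 (ENSG00000146592.16, chr7:28299321-28825894), a factor of the ATF2 family, had the lowest difference among these factors. It stood at 10.3, 14.8, 12.0 and 8.55 CPM in untreated DLK KO and at 48.6, 47.0, 43.2 and 48.5 CPM after vincristine. Its double KO libraries stood at 8.20, 8.58, 8.00 and 9.06 CPM untreated and at 5.99, 8.91, 11.6 and 6.43 CPM after vincristine, which overlapped. The difference was -2.04 ± 0.22 (edgeR, adjusted p 1.92e-06). ATF3 (ENSG00000162772.16, chr1:212565334-212620777), a stress-induced factor of injured neurons, stood at 3.77 to 6.18 CPM in untreated DLK KO, 17.8 to 26.9 after vincristine, and between 1.29 and 2.60 CPM in all 8 double KO libraries. Its difference was -1.78 ± 0.30 (edgeR, adjusted p 3.23e-05).

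JUND, an AP-1 subunit that resting cells also make, rose in DLK KO from 81.5 to 111 CPM untreated to 185 to 218 CPM after vincristine, and lay between 55.5 and 65.5 CPM in the double KO, untreated and treated alike. Its difference of -1.07 ± 0.13 was called (adjusted p 2.04e-05) and was -0.69 with GC offsets. JDP2, a repressor that pairs with JUN, differed by -1.52 ± 0.33. MAFG, a small MAF factor, differed by -0.50 ± 0.10 and lost its call in the fit of all 32 libraries. Of the 16 AP-1 and ATF/CREB genes tested, 7 had a lower effect in the double KO and 2 a higher one, with a median of -0.342 against -0.00483 over all genes. The higher ones were ATF2 (0.22 ± 0.08), the other JNK target named in the study, and CREB1, and neither call held with GC offsets. With those offsets 6 genes of the list were called, and in the fit of all 32 libraries 5, each of them lower. In DLK KO itself 9 of the 16 were called higher and 1 lower. For this and the later lists, the shares of all genes called for the difference were 11.9% lower and 6.57% higher. For the effect in DLK KO they were 14% higher and 8.61% lower. The list's median effect was 0.501 in DLK KO and 0.0475 in the double KO.

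Short stretches before the start sites of 4 of these and later genes are shown because they hold AP-1 or CRE-like letters. They come from RefSeq (GRCh38.p14), run 5′ to 3′ on the gene's strand, and have the matching motif in capitals.

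JUN: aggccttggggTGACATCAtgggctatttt

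ATF3: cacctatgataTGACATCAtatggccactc

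YPEL4: ggggggatggaTGACTCAcagtgttatgat

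BBC3: gcactggaaggTGAGTCActctggtgaggc

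The JUN stretch lies at chr1:58784096-58784125 on the minus strand and its motif begins 67 bases before the RefSeq start, inside the longer gene model of GENCODE 29. The ATF3 stretch lies at chr1:212565273-212565302 on the plus strand, with the motif 123 bases before the start. Those of YPEL4 (chr11:57649934-57649963, minus strand) and BBC3 (chr19:47232762-47232791, minus strand) have the motif 40 and 113 bases before the start. The search covered both strands of windows from 250 bases before to 50 after the start for TGANTCA (AP-1), TGACGTCA (CRE), TGACATCA (CRE-like) and TGATGCAA (the C/EBP-ATF element, bound by ATF4), none of which contains another. Among the 15 genes with the lowest differences, 11 had a window: TGACATCA was in 2 (JUN and ATF3), TGANTCA in 1 (YPEL4) and the other motifs in none. Of 11000 windows of tested genes, 1.6% held TGACATCA, 4.25% TGANTCA, 3.26% TGACGTCA and 0.427% TGATGCAA. Of the 10 genes with the highest differences, 5 had a window and none of these held any of the 4 motifs. A match is a description of the letters and not a binding site measured here.

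Of the 8 BH3-only genes tested, which promote apoptosis by blocking BCL2 survival proteins, 5 rose in DLK KO, with a list median of 1.07 against 0.0827 in the double KO. HRK (ENSG00000135116.9, chr12:116856144-116881441), the BH3-only gene best known from neurons, stood at 8.36, 10.1, 6.72 and 7.44 CPM in untreated DLK KO and at 42.1, 41.7, 32.6 and 39.5 CPM after vincristine. Its double KO libraries stood at 3.30, 4.05, 3.27 and 3.43 CPM untreated and at 5.32, 3.49, 4.73 and 3.65 CPM after vincristine. The treated and untreated groups were 4.78-fold apart in DLK KO and overlapped in the double KO. The difference was -1.998 ± 0.22 (edgeR, adjusted p 1.03e-08), on an untreated level that was itself lower in the double KO by 1.20 on the log2 scale.

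BBC3 (PUMA, a BH3-only gene that p53 also induces) stood at 3.399 to 4.66 CPM in untreated DLK KO and 8.26 to 13.4 after vincristine, against 3.43 to 4.58 and 2.60 to 4.32 CPM in the double KO. Its untreated levels overlapped between the lines, and its difference of -1.52 ± 0.24 was called (adjusted p 2e-05). BCL2L11 (BIM, another BH3-only gene) stood at 9.66 to 17.4 CPM in untreated DLK KO, 27.6 to 32.1 CPM after vincristine, and between 16.7 and 19.9 CPM in all double KO libraries, a difference of -1.21 ± 0.15 (adjusted p 6.9e-07). BMF, a BH3-only gene tied to the cytoskeleton, differed by -0.87 ± 0.21 and lost its call in the fit of all 32 libraries. These 4 were the BH3-only genes called for the difference, with a list median of -0.436. The other 4 (BAD, BIK, BID and PMAIP1) had estimates above 0 and were not called. With GC offsets BAD was called higher (0.33). Of the 7 tested BCL2 guardians and effectors only BCL2 was called, at -0.44 ± 0.14, and it lost its call in 10 of 28 alternatives.

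NGFR and TNFRSF25, receptors of the TNF receptor family, were called lower at -0.50 ± 0.10 and -0.62 ± 0.18, and neither call held with GC offsets or in the fit of all 32 libraries. Among 13 tested p53 targets, only BBC3 and BTG2, a growth-arrest gene (-0.66 ± 0.12), were called, and the list median was 0.162. Of all genes 18.5% were called in either direction.

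**Figure D3:**
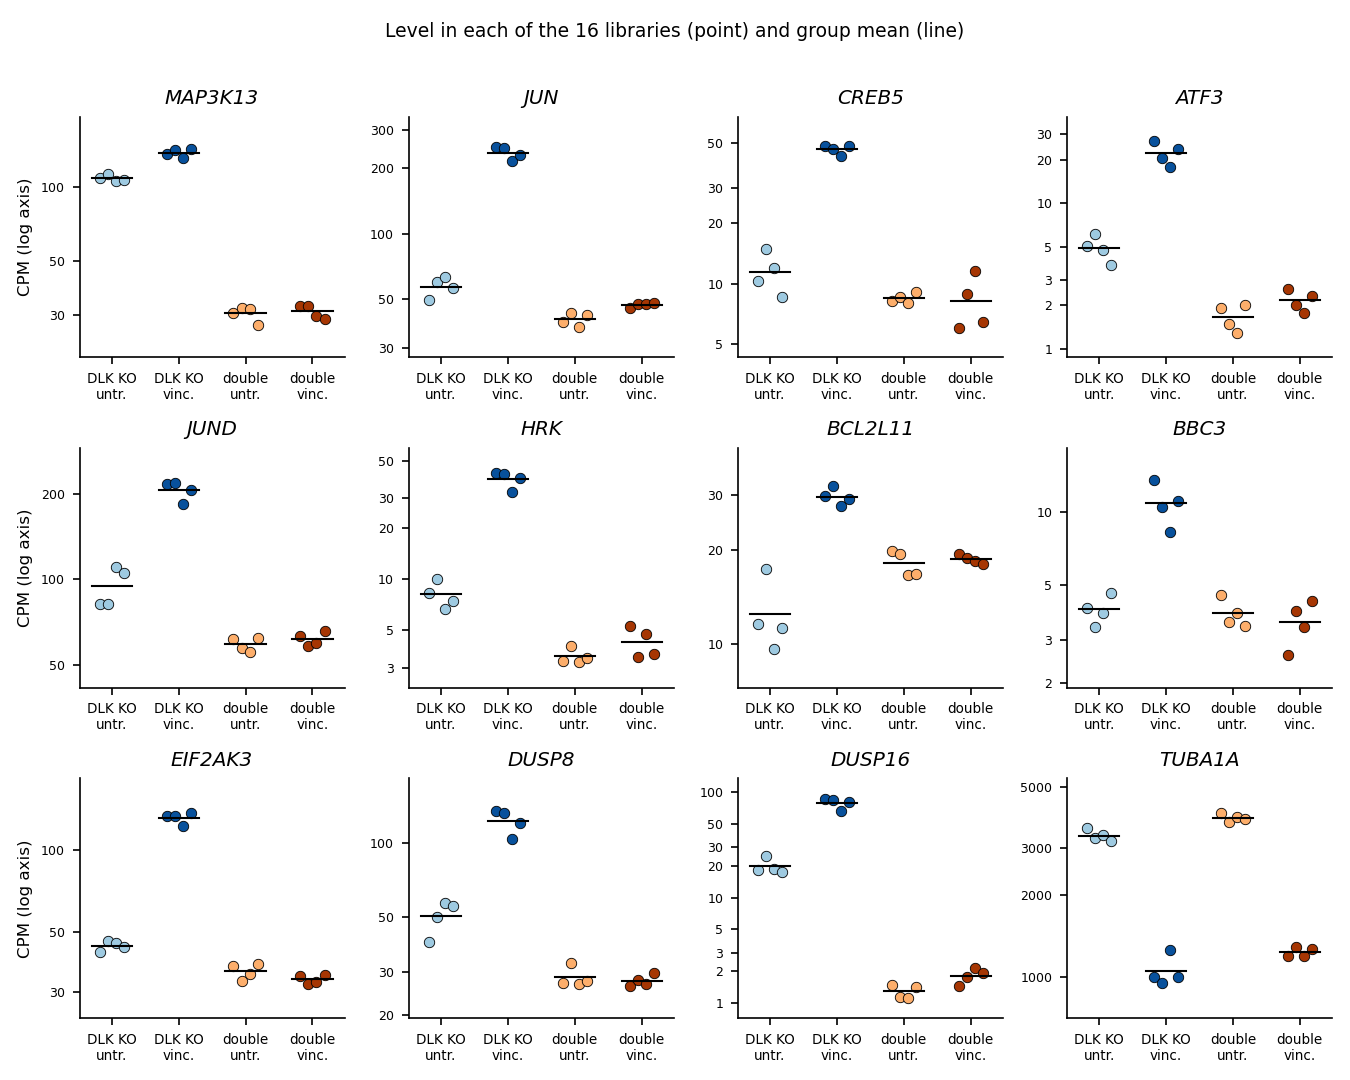
CPM on a log axis in each of the 16 libraries for 12 genes, with a line at the group mean. The DLK KO vincristine points (dark blue) stand above the other groups for JUN, CREB5, ATF3, JUND, HRK, BCL2L11, BBC3, EIF2AK3, DUSP8 and DUSP16, MAP3K13 is low in the double KO, and TUBA1A falls in both lines.

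Of 13 tested phosphatases and feedback inhibitors of the MAP kinases, 6 rose in DLK KO and 6 were called for the difference between the lines, all lower (list median -0.288). DUSP16 (MKP7, a phosphatase that inactivates JNK) stood at 17.3 to 24.8 CPM in untreated DLK KO and 65.7 to 86.7 CPM after vincristine, against 1.12 to 1.49 and 1.47 to 2.14 CPM in the double KO. It was 3.93 lower on the log2 scale in the untreated double KO, and its difference in effect was -1.49 ± 0.31 (edgeR, adjusted p 0.0007). DUSP8, a neuronal JNK and p38 phosphatase, stood at 39.8 to 57.1 and 104 to 135 CPM in DLK KO and at 26.7 to 32.6 and 26.4 to 29.6 CPM in the double KO, a difference of -1.33 ± 0.15 (adjusted p 1.48e-05). DUSP1, DUSP4, DUSP10 and SPRED2 were also called lower, from -0.56 to -0.32, and the other 7, among them DUSP5, DUSP6 and DUSP7, were not called. DUSP16, DUSP8 and DUSP1 were the 3 whose calls held in the fit of all 32 libraries.

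In the kinase pathway itself, 7 of 18 genes were called lower and 1 higher (median -0.209). The lower genes were MAP3K13, MAP3K10, MAP2K7 and the JNK scaffolds MAPK8IP1, MAPK8IP2, MAPK8IP3 and SPAG9, and the higher one was MAPK8, which encodes JNK1 (0.22 ± 0.06). With GC offsets MAPK8 (0.07), MAP3K10 (-0.14) and MAPK8IP2 (-0.12) lost their calls, MAPK8IP3 stood at -0.20 and MAP2K7 at -0.30. MAPK8IP1 (JIP1) stood at 108 to 137 CPM in untreated DLK KO and 180.3 to 214 after vincristine, against 95.0 to 111 and 95.2 to 99.7 CPM in the double KO. Its difference of -0.73 ± 0.09 (adjusted p 1.97e-06) was -0.44 with GC offsets and lost its call in the fit of all 32 libraries. SPAG9 (JIP4) was the only member of the list called there (-0.26).

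EIF2AK3 (ENSG00000172071.11, chr2:88556741-88627576) had a difference that varied little between the alternatives. It encodes PERK, the kinase of the endoplasmic reticulum that phosphorylates eIF2α and turns on the integrated stress response. It stood at 42.1, 46.0, 45.5 and 44.0 CPM in untreated DLK KO and at 134, 134, 123 and 137 CPM after vincristine. Double KO libraries stood at 37.3, 32.8, 34.8 and 38.0 CPM untreated and at 34.3, 32.1, 32.5 and 34.5 CPM after vincristine, so the treated and untreated groups overlapped there. The difference was -1.67 ± 0.09 (edgeR, adjusted p 2.38e-18), between -1.72 and -1.64 in all 28 alternatives.

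The integrated stress response genes downstream moved less. Of 20 tested, 12 were called for the difference, all lower (list median -0.45), and in DLK KO 15 rose. PPP1R15A (GADD34, which ends the response) stood at 43.0 to 49.2 CPM in untreated DLK KO and 70.1 to 81.3 after vincristine, and between 87.8 and 97.01 CPM in the double KO throughout, a difference of -0.72 ± 0.08 (adjusted p 1.29e-08). PHGDH, the entry enzyme of serine synthesis, differed by -0.72 ± 0.12 (adjusted p 3.76e-05). SLC7A11, the cystine transporter, stood at 1.96 to 2.94 CPM in untreated DLK KO and 6.81 to 7.97 CPM after vincristine, and its difference of -1.43 ± 0.32 lost its call in the fit of all 32 libraries. DDIT3 (CHOP, the death-linked factor of this response) stood at 9.64 to 12.9 and 15.2 to 16.9 CPM in DLK KO, and its difference of -0.46 ± 0.16 lost its call in 19 of 28 alternatives. ATF4, the central factor of the response, which is controlled mainly by translation, differed by 0.05 ± 0.10 and was not called. With GC offsets 6 of the 20 genes were called lower, and in the fit of all 32 libraries 3 were.

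Some chaperones of the endoplasmic reticulum went the other way. HSPA5 (BiP, the main chaperone) stood at 258, 234, 229 and 229 CPM in untreated DLK KO and at 190, 189, 186 and 190 CPM after vincristine. Its double KO libraries stood at 154, 165, 166 and 151 CPM untreated and at 152, 159, 153 and 163 CPM after vincristine. It fell in DLK KO, the double KO groups overlapped, and the difference was 0.31 ± 0.06 (edgeR, adjusted p 0.000637). Of 17 tested chaperones and unfolded protein response genes, 6 were called higher (HSPA5, PDIA6, MANF, SDF2L1, DNAJB11 and CALR) and 1 lower (HYOU1). With GC offsets DNAJB11 (0.10) and HYOU1 (-0.13) lost their calls. In DLK KO 9 of the 17 fell, and the list's median effect was -0.204 there and 0.0116 in the double KO. HSPA5 and PDIA6 held in the fit of all 32 libraries.

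Axon injury and regeneration genes were called lower for 7 of 19 and higher for 1, STMN2 (median -0.335). Besides ATF3 the lower ones were STMN4, SOX11, SMAD1, KLF6, KLF7 and GADD45A. STMN4, a stathmin that binds tubulin, stood at 164 to 191 CPM in untreated DLK KO and 388 to 408 CPM after vincristine, against 12.6 to 14.6 and 15.8 to 19.4 CPM in the double KO. Vincristine raised it in each line, by 1.13 ± 0.05 and 0.41 ± 0.08 (both called), and the difference was -0.72 ± 0.09 (edgeR, adjusted p 6.73e-07). The untreated level was lower in the double KO by 3.73 on the log2 scale. SMAD1, a BMP signal transducer, differed by -0.44 ± 0.08, and SOX11, a factor of neuronal growth, by -0.43 ± 0.07 with the call lost in the fit of all 32 libraries.

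ID4 and ID2, inhibitors of neuronal bHLH factors, moved in opposite directions. ID4 stood at 131 to 146 CPM in untreated DLK KO and 270.1 to 288 after vincristine, against 165 to 172 and 177 to 191 CPM in the double KO, a difference of -0.88 ± 0.06 (adjusted p 1.79e-13). ID2 stood at 40.1, 34.8, 37.0 and 35.1 CPM in untreated DLK KO and at 27.3, 23.5, 33.5 and 25.8 CPM after vincristine. The double KO libraries stood at 19.7, 17.0, 19.3 and 17.8 CPM untreated and at 22.6, 22.1, 22.9 and 23.9 CPM after vincristine. Treated libraries were below untreated ones in DLK KO and above them in the double KO, and the difference was 0.73 ± 0.12 (adjusted p 3.51e-05).

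NES and VIM, intermediate filament genes of neural progenitors, were the 2 members called among 8 tested progenitor markers. NES stood at 194 to 259 CPM in untreated DLK KO and 480.0 to 598 after vincristine, and at 91.6 to 97.7 and 84.8 to 89.7 CPM in the double KO, a difference of -1.37 ± 0.12 (adjusted p 6.9e-07). VIM differed by -0.44 ± 0.07 and was more abundant in the double KO, at 191 to 196 CPM untreated against 30.9 to 38.0 CPM in DLK KO. The summed progenitor list, of which NES was the largest part in DLK KO, went from 241 to 314 CPM untreated to 552 to 668 CPM after vincristine in DLK KO and stayed between 299.9 and 317 CPM in the double KO. The other 6 members (SOX2, PAX6, HES5, SOX1, SLC1A3 and FABP7) were not called.

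Several of the lowest differences were in genes outside these lists. SH2D3C, an adaptor of integrin and Eph signalling, stood at 17.8 to 19.8 CPM in untreated DLK KO and 51.8 to 62.3 after vincristine, against 12.0 to 15.4 CPM over all double KO libraries (-1.69 ± 0.13, adjusted p 5.41e-13). YPEL4 stood at 3.96 to 6.70 and 15.5 to 17.0 CPM in DLK KO and between 3.79 and 5.72 CPM in the double KO (-1.65 ± 0.21, adjusted p 2.61e-07). ADCY8, a calcium-stimulated adenylyl cyclase, rose in DLK KO from 4.02 to 5.15 CPM to 13.1 to 15.9 CPM, and stood at 13.4 to 19.6 CPM in the double KO whether treated or not (-1.71 ± 0.17, adjusted p 2.76e-09). MET, the hepatocyte growth factor receptor, went from 0.276 to 1.11 CPM to 1.18 to 3.75 CPM in DLK KO and stood at 9.80 to 12.9 CPM in the double KO. The untreated double KO libraries of MET lay above all DLK KO vincristine libraries, and those of ADCY8 overlapped with them. RPRM, a p53-linked cell cycle inhibitor, stood at 16.9 to 17.3 and 32.9 to 40.8 CPM in DLK KO and 38.0 to 47.6 CPM in the double KO (-1.08 ± 0.11, adjusted p 2.53e-09). FAM135B and C11orf96, the lowest by fold among genes with enough counts to be named, had at most 9 counts in any DLK KO library and at most 6 in any double KO library, respectively, and lost their calls in the fit of all 32 libraries.

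Several of the genes with the highest differences rested on few counts. ZNF717 had at most 3 counts in every double KO library, so no fold is given. REG1A had at most 7 counts in any DLK KO library, and ZNF506 at most 9 in any double KO library. GSG1 stood at 4.43 to 5.88 and 3.06 to 3.54 CPM in DLK KO and at 1.16 to 2.07 and 2.15 to 2.82 CPM in the double KO, a difference of 1.18 ± 0.28 that lost its call in the fit of all 32 libraries. FAM162A, a hypoxia-linked mitochondrial gene (0.74 ± 0.17), and AIMP2, a scaffold of the aminoacyl-tRNA synthetases (0.72 ± 0.14), kept theirs in all 28 alternatives. The glycolysis and hypoxia list had 6 higher and 2 lower calls among 21 genes (median 0.135), and the aminoacyl-tRNA synthetase list 5 higher and 4 lower calls among 23 (median 0.0644).

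Genes of secretion, synapses and the cytoskeleton were also among those called. Of 12 tested neuropeptide and secreted hormone genes 6 were lower (median -0.305), among them the stanniocalcins STC1 (-1.23 ± 0.19, adjusted p 1.36e-05) and STC2 and the granins VGF (-0.69 ± 0.10), CHGA, CHGB and SCG2. In the fit of all 32 libraries only STC1 held, and with GC offsets VGF stood at -0.30 and CHGA lost its call. Of 16 synaptic vesicle genes 7 were lower and 1 higher, of 15 channels 5 lower and 1 higher, and of 14 microtubule-associated and filament genes 6 lower. The shares of all genes were 11.9% lower and 6.57% higher. With GC offsets the lower calls in these lists were 5, 3 and 5, and the higher calls 1, 0 and 0. MAP1B (-0.40 ± 0.05), which stabilises axonal microtubules, was the only gene of these last 3 lists called in the fit of all 32 libraries.

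**Figure D4:**
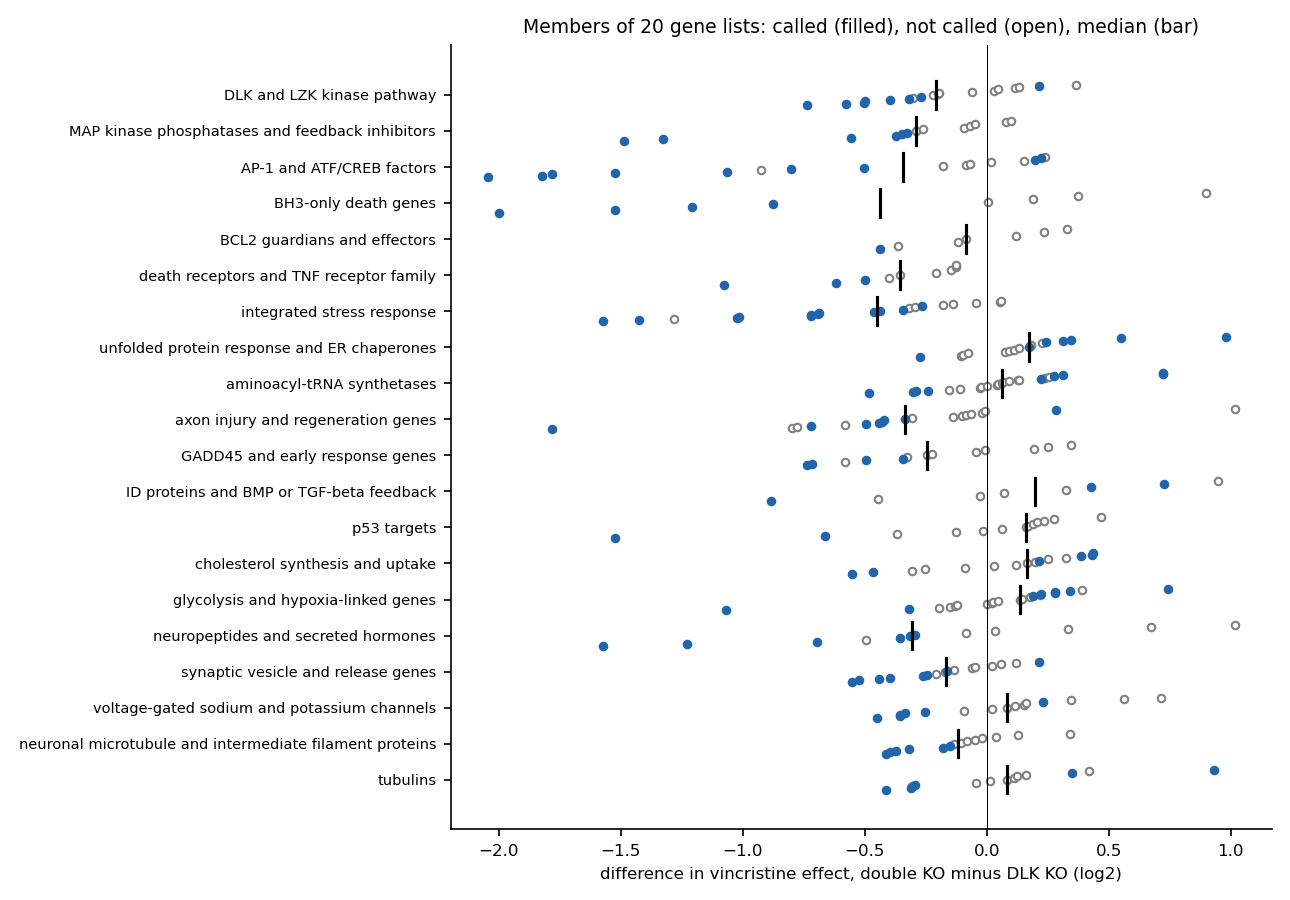
Difference in vincristine effect (log2, double KO minus DLK KO) of every tested member of 20 gene lists, called (filled) or not called (open), with a bar at the list median. AP-1, stress response and phosphatase members lie mostly to the left and chaperone members mostly to the right, while BH3-only members lie 4 to each side of 0.

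Tubulin transcripts fell in both lines. Cells are known to adjust tubulin messenger RNA to the amount of free tubulin. TUBA1A (ENSG00000167552.13, chr12:49184796-49189324) stood at 3545, 3248, 3327 and 3175 CPM in untreated DLK KO and at 999, 949, 1260.0 and 1002 CPM after vincristine. Double KO libraries stood at 4017, 3741, 3895 and 3816 CPM untreated and at 1195, 1295, 1196 and 1266 CPM after vincristine. The treated libraries lay below the untreated ones in each line, at 0.317 and 0.32 of the untreated mean, and the difference of 0.02 ± 0.09 was not called. Of 13 tubulin genes 12 fell in DLK KO (median -1.35) and 10 in the double KO (median -1.45). For the difference 3 were called lower (TUBB2B, TUBB3 and TUBB4A) and 2 higher (TUBA1B and TUBA4A). Of these, TUBB2B alone held in the fit of all 32 libraries, at -0.41 ± 0.06 in the main fit and -0.23 with GC offsets. With those offsets TUBB3 (-0.06) and TUBB4A (-0.03) lost their calls and TUBB4B (0.31) gained one. The list then had 3 genes called higher and 1 lower.

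The tubulins made up most of the large changes in the double KO. Of the 121 genes called there, 13 fell at least 2-fold, and these were 9 tubulin genes, the tubulin pseudogene TUBBP1 and 3 transcripts with clone names. SNORD92, a small nucleolar RNA below the count minimum for naming, was the 1 gene that rose at least 2-fold. The most raised genes above that minimum were MT-TF, a mitochondrial transfer RNA (0.67), and SLIRP, PTRHD1, HIGD1A and RGS4, between 0.47 and 0.52. SLIRP, which stabilises mitochondrial messenger RNA, stood at 41.2 to 47.5 CPM untreated and 55.5 to 73.1 after vincristine. HIGD1A, a respiratory chain factor, stood at 8.68 to 9.55 and 11.7 to 13.8 CPM. Of 15 cholesterol genes 4 rose in the double KO (INSIG1, HMGCS1, FDFT1 and FDPS), while 6 rose in DLK KO. INSIG1, a feedback brake on sterol synthesis, stood at 43.8 to 49.7 CPM untreated and 55.0 to 57.4 after vincristine in the double KO. Its difference in effect of 0.44 ± 0.09 lost its call in the fit of all 32 libraries.

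A score over genes chosen in other libraries gave the size of the shared response. Over the 680 genes that vincristine changed at least 2-fold in Control gRNA cells of the second experiment, signed by their direction there, the mean log2 CPM stood at 0.808, 0.858, 0.846 and 0.768 in untreated DLK KO and at 1.18, 1.20, 1.18 and 1.17 after vincristine. Double KO libraries stood at 0.844, 0.855, 0.845 and 0.846 untreated and at 0.881, 0.879, 0.972 and 0.853 after vincristine. It rose by 0.361 in DLK KO and by 0.0487 in the double KO, which is 13.5% as much, and replicate 3 was the highest of the treated double KO libraries. Without that library the rise in the double KO was 0.0235 (6.51%). Over 701 genes chosen in WT the rises were 0.329 and 0.0291 (8.87%), and without the same library the latter was 0.00836 (2.54%). Of 490 genes raised at least 2-fold in WT, the median effect was 0.355 in DLK KO and 0.00135 in the double KO, and 137 (28%) were called lower for the difference against 11.9% of all genes.

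The second experiment shares no library with this comparison, so the 182 genes called lower in the 3 fits were looked up there. In Control gRNA cells vincristine raised 139 of them and lowered 7, beside 17.1% and 18.1% of all genes tested. Vincristine had raised 179 of the 182 in DLK KO, so all genes are not a like background. The ATF2 gRNA minus Control gRNA difference was called lower for 133 and higher for 3 (10.4% and 10.2% of all genes), and the JUN gRNA minus Control gRNA difference lower for 102 and higher for 11 (7.06% and 8.71%). These 2 differences share their control libraries with each other and with the Control gRNA effect. Of the 21 genes called higher, 20 were tested, and 17 of these fell in Control gRNA cells. HRK stood at 62.8 ± 4.26 CPM (SD, n = 5) untreated and 285 ± 4.76 after vincristine (n = 5) in Control gRNA. In ATF2 gRNA it stood at 42.3 ± 2.10 (n = 5) and 53.9 ± 3.36 (n = 4), and in JUN gRNA at 35.3 ± 1.92 (n = 5) and 83.2 ± 6.77 (n = 5). Over all 2061 tested genes called lower in the 16-library fit, vincristine raised 592 (28.7%) in Control gRNA and lowered 676 (32.8%). For these genes the ATF2 gRNA difference was called lower for 432 (21%) and higher for 476 (23.1%). The JUN gRNA difference was called lower for 337 (16.4%) and higher for 481 (23.3%).

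The loss of LZK was also measured with DLK present, as the vincristine effect in LZK KO minus that in WT, in 16 libraries of which none enters the 16-library fit of DLK KO and double KO. There 1082 of 16909 genes were called (6.4%), 541 lower (3.2%) and 541 higher (3.2%). Vincristine changed 24% of genes in WT and 1.84% in LZK KO (1.45% higher, 0.384% lower). Of 16372 genes tested in both, 127 were called lower in both comparisons, which is 6.16% of the 2062 called lower without DLK and 24% of the 529 called lower with DLK. Of all genes tested in both, 3.23% were called lower with DLK.

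A test of the difference between both LZK contributions, (double KO minus DLK KO) minus (LZK KO minus WT), called 1164 of 18235 genes (6.38%) over all 32 libraries, 674 lower (3.7%) and 490 higher (2.69%). Contribution here names a difference between lines with and without LZK. What it owes to LZK and what to other differences between the lines cannot be told apart. For HRK the contribution of LZK was -1.998 ± 0.22 without DLK and -0.20 ± 0.18 with it, and the contributions differed by -1.76 ± 0.30 (edgeR, adjusted p 0.000313). EIF2AK3 had -1.67 ± 0.09 and -0.10 ± 0.09, a difference of -1.54 ± 0.12 (adjusted p 5.29e-11). JUN had -1.82 ± 0.09 and -0.56 ± 0.23 (-1.23 ± 0.27, adjusted p 0.00602), CREB5 -2.04 ± 0.22 and -0.50 ± 0.12 (-1.52 ± 0.25, adjusted p 0.000181), and SH2D3C -1.69 ± 0.13 and -0.13 ± 0.20 (-1.52 ± 0.25, adjusted p 0.00016). For each of these genes the log2 difference in vincristine effect between lines with and without LZK was larger without DLK than with it. All of them were among the 15 lowest differences without DLK, so the choice of genes favoured this order. ID4, NES and DUSP16 were called in the same direction, at -0.83, -1.18 and -1.14. These values do not describe levels. Mean levels of HRK, EIF2AK3, JUN, CREB5 and SH2D3C were lower in LZK KO than in WT, untreated and treated. HRK stood at 43.4 and 341 CPM in WT and 14.55 and 98.1 CPM in LZK KO. EIF2AK3 stood at 76.1 and 280 CPM in WT and 40.8 and 137 CPM in LZK KO.

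The integrated stress response list had the opposite order. With DLK present 19 of its 20 tested genes were called lower for the loss of LZK (median -1.39), against 12 of 20 without DLK (median -0.45), and the difference between the contributions was called for 13 genes, all higher. The list's median vincristine effect was 0.453 in DLK KO and 0.0179 in the double KO, so -0.45 was about the whole effect in DLK KO. Mean PHGDH went from 27.1 to 141 CPM in WT and from 17.65 to 30.0 CPM in DLK KO. DDIT3 had -0.46 ± 0.16 without DLK and -2.02 ± 0.30 with it (1.59 ± 0.36, adjusted p 0.00597), and PHGDH -0.72 ± 0.12 and -1.65 ± 0.12 (0.96 ± 0.18, adjusted p 0.0006). ATF4 had 0.05 ± 0.10 and -0.84 ± 0.14 (0.93 ± 0.17, adjusted p 0.000661). For ATF3, BBC3, BCL2L11, YPEL4 and DUSP8 the difference between the contributions was not called. For ATF3 it was -0.21 ± 0.32, on contributions of -1.78 ± 0.30 and -1.54 ± 0.15. Of 17 chaperones and unfolded protein response genes the LZK contribution was called higher for 10 and lower for 3 with DLK present, and higher for 6 and lower for 1 without DLK. The difference between the contributions was called higher for 3 of them and lower for 4. Of 15 cholesterol genes it was called higher for 12 with DLK present, and higher for 4 and lower for 2 without DLK, and the difference between the contributions was called for 8, all lower.

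**Figure D5:**
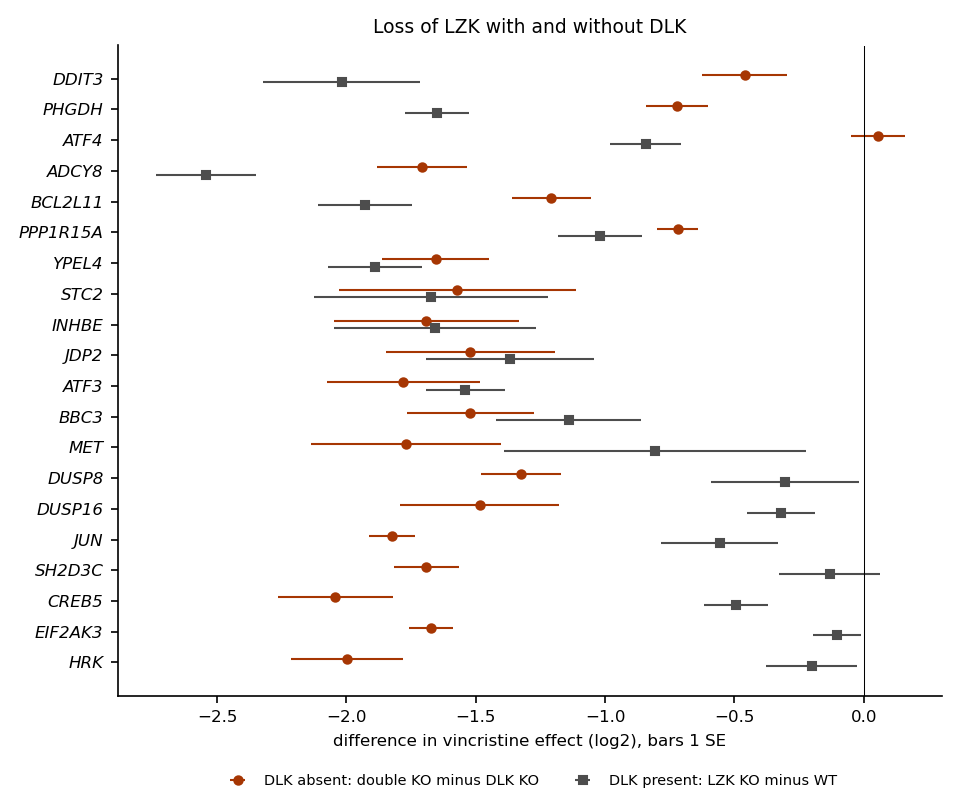
Difference in vincristine effect between lines with and without LZK (log2, bars 1 SE) for 20 genes, without DLK (circles, double KO minus DLK KO) and with DLK (squares, LZK KO minus WT). HRK, EIF2AK3, CREB5, SH2D3C and JUN lie further left without DLK, DDIT3, PHGDH and ATF4 further left with DLK, and ATF3 overlaps.

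The lines also differed before treatment, and a difference in effect can lie in the untreated level. Between untreated double KO and untreated DLK KO 9964 genes were called (57.4%), 1651 of them at least 2-fold higher and 1189 at least 2-fold lower, and between the vincristine groups 10293 (59.3%). The untreated differences were not even along the genome, with a median log2 value of -0.801 over 266 genes of chromosome 18, -0.43 over 744 of chromosome 16, and 0.361, 0.355 and 0.347 over chromosomes 2, 5 and 20. The median difference in vincristine effect was 0.0471 on chromosome 18, -0.123 on chromosome 16, and 0.043, 0.0562 and -0.0899 on chromosomes 2, 5 and 20. On chromosomes 22 and 19 it was -0.199 and -0.12, with 29.1% and 24.5% of genes called, beside 18.5% of all genes. What these untreated differences, and the differences in vincristine effect, owe to LZK and what to the lines cannot be told apart.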

How the data were processed

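The deposited values are read counts per gene, 1 table per experiment, made by the authors before deposit. Per the submitters' processing notes, reads were handled with cutadapt 3.4, STAR and featureCounts of Subread 2.0.1 on GRCh38. The strand setting and the annotation release are not given in the sources used here, so antisense and overlapping genes are uncertain. Of the 58440 identifiers 56992 had the version and start of GENCODE 29 and 58320 matched a symbol.

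Counts were tested with edgeR 4.0.16 (R 4.3.3): low-count filter by group, TMM scaling, 1 mean per group, robust quasi-likelihood test, 2-sided, Benjamini-Hochberg adjustment over all genes tested, called under 0.05. On simulated data with 200 of 16943 genes changed 2-fold in this comparison, 74% were recovered with 8 false calls. The simulated counts held no GC trend and no other differences between the lines, so they cannot show how many calls those bring. Members and gene lists were chosen with earlier results of these data known. Named are the 15 lowest and 10 highest called differences (average log2 CPM of at least 1, at least 10 counts in every library of a group), up to 5 called members per list by smallest p, the extremes of each effect and fixed pathway genes, 157 in all; list members beyond those 5 were named after their values were seen. Alternatives were DESeq2 1.42.0, limma 3.58.1 voom, other size factors and filters, the replicate block, wider fits, leaving out each library, and, chosen after seeing the data, GC offsets and leaving out DLK KO untreated replicates 1 and 2.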

Additional observations from a re-analysis of the deposited data

Results flagged for a closer look

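Of 120 groups of 4 libraries tested for a library apart from the rest (gap to the nearest over the whole range, above Dixon's critical value), 4 had one, and chance gives about 1 in 20. DUSP8 in double KO untreated replicate 2 was the highest of its group at 32.6 CPM (0.836 of the range), ADCY8 in DLK KO vincristine replicate 1 at 15.9 CPM (0.843), HSPA5 in DLK KO untreated replicate 1 at 258 CPM (0.833) and TUBA1A in DLK KO vincristine replicate 3 at 1260.0 CPM (0.83). The calls of DUSP8, ADCY8 and HSPA5 were kept without these libraries.

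Differences between groups under the same contrast, each tested in itself, were called for 3208 genes between double KO and DLK KO, 1082 between LZK KO and WT, 1164 between the LZK contributions with and without DLK, 4273 between ATF2 gRNA and Control gRNA and 3273 between JUN gRNA and Control gRNA.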

How the results depend on the processing

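The difference in vincristine effect, double KO minus DLK KO, called for 3208 genes, became 207 in the fit of all 32 libraries, 1114 in a fit of the 24 libraries of the 3 knockout lines, 1945 with GC offsets and 2001 with the replicate block and GC offsets. The vincristine effect in DLK KO, 3925, became 1190, 2379 and 2500 under the first 3 of these and 2421 without DLK KO untreated replicates 1 and 2. The vincristine effect in double KO, 121, became 12 and 14 in the wider fits, 247 with GC offsets, 303 with the replicate block, 439 with DESeq2, 448 with voom and 458 with no filter. The difference in vincristine effect, LZK KO minus WT, 1082, became 2262 in the fit of all 32 libraries and 1828 with GC offsets, and the difference between the LZK contributions with and without DLK, 1164, became 1897 with voom. The cause was not tested. Leaving out 1 library gave 2442 to 3705 for the difference, 2913 to 4121 for DLK KO, 15 (without double KO untreated replicate 2) to 340 (without DLK KO untreated replicate 3) for double KO, 9425 to 10132 for the untreated and 9682 to 10502 for the vincristine comparison, 709 (without WT untreated replicate 3) to 1629 (without WT vincristine replicate 4) for LZK KO minus WT, and -0.337 to -0.295 for the score difference of -0.312.

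The labels do not tie replicate numbers, and same-numbered libraries correlated between -0.0444 and 0.149, with 7 of 16 best with their own number; the replicate block called 3281 genes for the difference, 3122 of them among the 3208. Of 157 named genes 128 were called, 38 of these in all 28 alternatives, 99 with GC offsets and 39 in the fit of all 32 libraries, and 0 reversed. Of the 86 genes at least 2-fold lower, 62 and 39 kept the call under the last 2. Genes of a few counts per library, such as ZNF717, are limited by depth.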
